A study of Homo sapiens with 2 samples.

Results

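The promoters of lncRNA genes that stand apart from protein-coding genes were examined in B2B cells. These were the GENCODE 44 genes of type lncRNA on chromosomes 1 to 22 and X whose canonical transcription start site (TSS) lay more than 5 kb from the canonical TSS of every protein-coding gene. Each was represented by a window of 500 bp to either side of its TSS. The rule gave 14387 windows of 38726 promoter windows in all, and the others belonged to 19970 protein-coding genes and to 4369 lncRNA genes within 5 kb of a coding TSS. The rule reads the annotation and no peak values. B2B is the BEAS-2B line of human bronchial epithelial cells, a non-cancerous and immortalized line, here WT and untreated. Open chromatin was profiled with ATAC-seq, an assay that uses the enzyme Tn5 to cut and tag DNA free of nucleosomes, in 2 biological replicates of this single condition. There were no groups of samples to compare, so the comparisons below are between classes of promoters within the same libraries, and no test between conditions was possible. The deposited peak lists held 28874 peaks for replicate 1 and 36319 for replicate 2. At protein-coding promoters, 0 of 12 epithelial marker genes had a peak in either replicate, including CDH1, EPCAM and KRT5, whereas 7 of 12 mesenchymal marker genes had one in both (CDH2, FN1, PDGFRB, SNAI2, TWIST1, VIM and ZEB1) and 0 of 4 immune genes did. For scale, 51.0% of all protein-coding promoters had a peak in both replicates, and the mesenchymal count is near that share. The line is called by its name here, since the markers of its epithelial label had no promoter peak.

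A lncRNA gene is transcribed by RNA polymerase II into a long RNA with no known protein product. Many lncRNA promoters lie back to back with a coding promoter, since promoters with many CpG sites often start transcription in both directions. A lncRNA gene that stands alone can have a promoter of its own, in some cases with a CpG island. It can also start within an enhancer, where transcription factors such as AP-1 (dimers of FOS and JUN proteins) bind distal DNA. Some of these genes serve as carriers of small RNAs in their introns or exons, while others act as RNAs themselves, such as MALAT1 in nuclear speckles.

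The open windows differed in their CpG sites and in the AP-1 motif, and 8 sequences are shown as examples, chosen for one or the other. Neither enhancer marks nor factor binding were measured here. All are hg38 reference sequence on the plus strand, 100 bases to either side of the replicate 2 summit of the highest peak at the promoter. The first 6 hold the AP-1 motif TGACTCA, or TGAGTCA on the other strand, and it is in capitals. ENSG00000290079 (chr3:153221838-153222038) had the highest mean fold enrichment over the replicates of all open members with the motif at the summit, although another member was higher in each replicate alone, and its motif was centered 1 bp from the summit. ENSG00000288758 (chr5:133240615-133240815) and ENSG00000248884 (chr5:68434238-68434438) held 2 copies each, as did LINC00460. The summit at ENSG00000288758 lay 727 bp downstream of its TSS, so the sequence is outside the promoter window, although the peak reached into it. MIR181A1HG (chr1:198937389-198937589), the host gene of the microRNAs miR-181a and miR-181b, LUCAT1 (chr5:91314375-91314575), a stress-induced lncRNA, and LINC00460 (chr13:106376392-106376592), described in several carcinomas, are known genes with the motif. The last 2 are rich in CpG sites around the summit, which are in capitals, and each lies in a peak shared by a pair of lncRNA genes. DANCR (chr4:52712241-52712441) holds 22 CpG sites and SLC28A2-AS1 (chr15:45279201-45279401) holds 21. Their whole promoter windows hold 91 and 36, and the count of SLC28A2-AS1 is below the median of 55 at open members. The 6 sequences with the AP-1 motif hold between 0 and 13 CpG sites. By the annotation, ENSG00000288758 starts inside a protein-coding gene on its opposite strand, and the other 7 start between protein-coding genes.
ENSG00000290079: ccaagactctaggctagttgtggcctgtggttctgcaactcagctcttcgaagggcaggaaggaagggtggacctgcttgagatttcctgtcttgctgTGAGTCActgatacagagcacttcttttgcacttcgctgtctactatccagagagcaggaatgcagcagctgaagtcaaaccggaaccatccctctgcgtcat
ENSG00000288758: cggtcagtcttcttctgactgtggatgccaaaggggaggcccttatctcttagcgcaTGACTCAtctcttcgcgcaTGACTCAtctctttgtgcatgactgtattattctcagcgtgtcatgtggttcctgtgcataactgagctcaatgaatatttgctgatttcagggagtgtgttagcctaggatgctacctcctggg
ENSG00000248884: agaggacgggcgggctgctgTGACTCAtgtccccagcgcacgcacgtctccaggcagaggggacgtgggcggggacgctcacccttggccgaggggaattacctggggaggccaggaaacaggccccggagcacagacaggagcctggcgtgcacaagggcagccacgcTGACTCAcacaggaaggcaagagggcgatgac
MIR181A1HG: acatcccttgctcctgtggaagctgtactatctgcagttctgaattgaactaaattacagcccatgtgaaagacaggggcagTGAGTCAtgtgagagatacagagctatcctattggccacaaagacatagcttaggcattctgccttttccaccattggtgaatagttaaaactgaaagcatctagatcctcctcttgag
LUCAT1: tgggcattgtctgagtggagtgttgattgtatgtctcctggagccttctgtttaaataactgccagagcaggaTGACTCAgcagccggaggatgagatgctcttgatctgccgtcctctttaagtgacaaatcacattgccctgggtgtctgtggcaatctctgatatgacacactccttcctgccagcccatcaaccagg
LINC00460: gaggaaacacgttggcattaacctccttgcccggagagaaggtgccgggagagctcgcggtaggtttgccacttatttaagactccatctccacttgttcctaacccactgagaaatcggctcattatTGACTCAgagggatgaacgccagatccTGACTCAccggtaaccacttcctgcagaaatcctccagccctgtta
DANCR: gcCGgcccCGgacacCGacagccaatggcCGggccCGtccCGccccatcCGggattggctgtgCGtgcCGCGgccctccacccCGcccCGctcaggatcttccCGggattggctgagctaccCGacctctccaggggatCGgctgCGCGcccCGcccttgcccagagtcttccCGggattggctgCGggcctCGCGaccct
SLC28A2-AS1: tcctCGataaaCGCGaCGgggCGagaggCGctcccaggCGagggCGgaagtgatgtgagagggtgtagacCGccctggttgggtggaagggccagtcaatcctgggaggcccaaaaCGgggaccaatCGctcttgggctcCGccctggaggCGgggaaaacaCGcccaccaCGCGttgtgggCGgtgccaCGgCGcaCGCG

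Few of the stand-alone lncRNA promoters had an ATAC-seq peak. In replicate 1, 1093 of 14387 windows overlapped a peak by at least 1 bp, or 7.60% (95% Wilson interval 7.18 to 8.04). In replicate 2 the number was 1284, or 8.92% (8.47 to 9.40), and the mean of the replicates was 8.26% ± 0.939 (SD, n = 2). Over all 38726 promoters the shares were 35.1% in replicate 1 and 38.6% in replicate 2. A peak in both replicates, called open from here on, was found at 1048 windows, or 7.28% (6.87 to 7.72), against 34.4% of all promoters. Another 45 windows had a peak in replicate 1 only and 236 in replicate 2 only, and 13058 (90.8%) had none. These intervals cover counting error only, since promoters are not replicates.

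The share was far below that of the other promoter classes in either replicate. At protein-coding genes 52.1% of windows had a peak in replicate 1 and 56.8% in replicate 2 (mean 54.4% ± 3.34, SD, n = 2), and 51.0% were open. The difference of stand-alone lncRNA from coding promoters was -44.5 percentage points in replicate 1 and -47.9 in replicate 2, and in open windows it was -43.8 points (95% Newcombe interval -44.6 to -42.9). lncRNA genes within 5 kb of a coding TSS were close to the coding genes, with 47.3% open, and the difference of the stand-alone windows from them was -40.05 points (-41.6 to -38.5). Of these near lncRNA windows 2174 lay within 0.5 kb of a coding TSS and 632 at 0.5 to 1 kb. Such windows overlap coding windows, so the same peak can count in both classes. Each gap of the stand-alone windows was larger than the SD between replicates. The peaks nevertheless gathered at the start sites. Among windows of the same length 10 kb upstream of each TSS that were themselves over 5 kb from a coding TSS, 1.10% of 13231 had a peak in both replicates (0.932 to 1.29), and 10 kb downstream it was 1.04% of 13206 (0.885 to 1.23). The intervals of these neighbors and of the TSS windows did not overlap.

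A window without a peak need not be closed. Library sizes are not in the lists, and the fragments at each summit were solved instead from the fold enrichment and the p-value of MACS2. The weakest listed summits had 16 fragments in replicate 1 and 13 in replicate 2, and the medians over all peaks were 35 and 30. Promoters seen in only 1 list were weak, with a median of 26 fragments where the peak was in replicate 1 only and 22 where it was in replicate 2 only, compared with 41.5 and 41 at the open windows in the respective replicates. No peak therefore means below detection at this depth.

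The open share of lncRNA promoters varied most within 5 kb of coding genes, as the plot of peak share by distance shows. Of lncRNA promoters within 0.5 kb of a coding TSS, whose windows overlap a coding window, 73.8% were open. At 1 to 3 kb 12.9% were. Just outside the 5 kb limit, at 3 to 5 kb, 5.62% of 587 windows were open (4.03 to 7.79), and just inside it, at 5 to 7 kb, 9.43% of 488 were (7.14 to 12.3). Among the members the share was 7.93% at 5 to 10 kb, 9.43% at 20 to 50 kb and 5.69% at 100 to 500 kb. It was lowest beyond 500 kb, where 34 of 1207 windows were open, or 2.82% (2.02 to 3.91). The median fold enrichment of these 34 was the highest of the 6 distance classes, 12.5 compared with 8.04 to 8.40 in the nearer bins. Some of the 34 shared a peak, such as ENSG00000249159, MIR4458HG and LINC02226, with 19.1 in replicate 1 and 21.9 in replicate 2. That median therefore rests on fewer peaks than windows, and it includes ANKRD20A5P, whose read placement is uncertain. Read placement was not checked at any of the 34 windows, which include the 3 farthest given below. The windows beyond 500 kb also had the fewest CpG sites, with a median of 8 compared with 16 at 5 to 10 kb. The 3 open members farthest from any coding TSS were ENSG00000279064 and ENSG00000288187 on chromosome 21, at 4812 and 4304 kb, and LSP1P5 on chromosome 2, at 2927 kb, the last with a fold enrichment of 5.02 in replicate 1 and 4.98 in replicate 2. At ENSG00000288187 the highest peaks of the replicates did not overlap, at 6217801 to 6218249 in replicate 1 and 6216675 to 6217619 in replicate 2. Between chromosomes the open share ranged from 3.66% of 465 windows on chromosome 19 to 11.8% of 508 on chromosome 9.

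**Figure D1:**
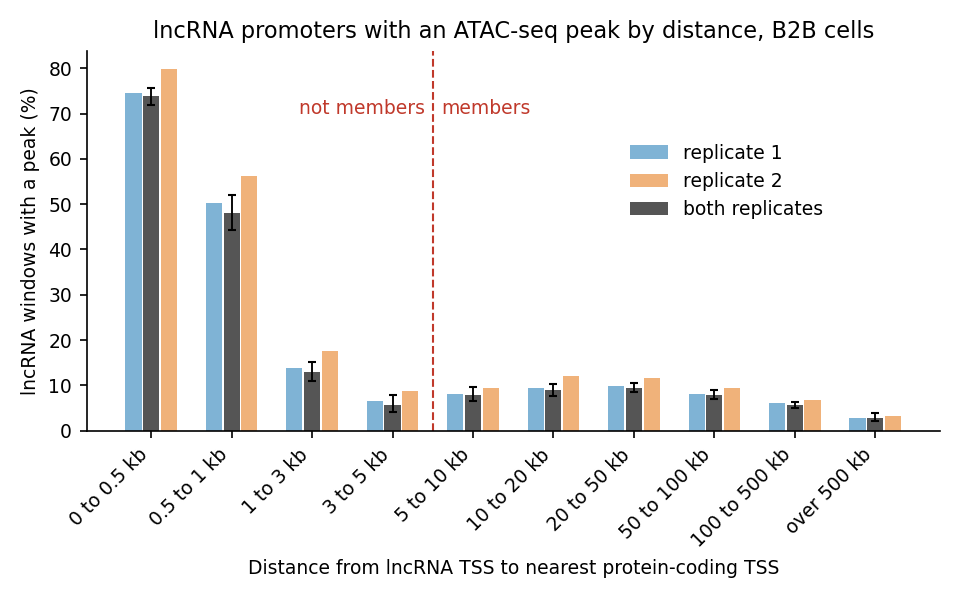
Share of lncRNA promoter windows with an ATAC-seq peak (y axis, percent) by distance from the lncRNA TSS to the nearest protein-coding TSS (x axis), in replicate 1, in replicate 2 and in both, with 95% Wilson intervals on the last. The dashed line marks the 5 kb limit, to the right of which the members lie between 2.82% and 9.43% in both replicates.

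Open stand-alone promoters held more CpG sites than those with no peak. CpG sites are the positions that DNA methylation acts on, and promoters with many of them are usually unmethylated and nucleosome-poor. The open stand-alone promoters had a median of 55 CpG sites in the 1 kb window (quartiles 29 and 77), and those with no peak had 11 (6 and 20). Open protein-coding promoters had a median of 81. When all 38726 windows were ranked by CpG count and split into 10 groups of nearly equal size, the open share of stand-alone lncRNA promoters rose from 1.02% in the group with the fewest sites (0 to 6) to 60.7% (51.6 to 69.1) in the group with the most (102 to 207). Only 0.813% of the members fell in that highest group and 19.7% in the lowest.

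Within the same CpG group the stand-alone promoters were still less often open, except where CpG sites were few. Each group spans a range of counts, so CpG counts may still differ between the classes within a group. With 37 to 56 sites, 22.5% of 944 stand-alone windows were open (19.9 to 25.2), compared with 50.2% of 2319 coding windows (48.2 to 52.3) and 49.5% of 610 lncRNA windows near a coding TSS (45.6 to 53.5). With 56 to 70 sites the shares were 39.0%, 67.7% and 67.0%, and with 102 to 207 sites they were 60.7%, 72.2% and 72.4%. In the 2 groups with the fewest sites the intervals of stand-alone and coding promoters overlapped, at 1.02% and 0.913% with 0 to 6 sites and 1.96% and 1.54% with 6 to 9. Spread over the CpG groups as the stand-alone windows are, 12.5% of coding promoters would be open. The gap to the observed 7.28% thus narrowed from -43.8 to -5.24 points. It was -5.35 points in replicate 1 and -6.16 in replicate 2, larger than the SD between them. With the start of any annotated transcript in place of the canonical one, the difference was -10.2 points. That setting also changed the set of members, to 12242 of which 1013 were open. The curves of lncRNA genes near a coding TSS and of coding genes ran close together in the plot of peak share by CpG count, with overlapping intervals. Windows of these 2 classes overlap where their TSSs lie within 1 kb. The stand-alone promoters ran below both from 9 sites upward. At 9 to 21 sites and at 102 to 207 sites the intervals of the 2 lncRNA classes overlapped.

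**Figure D2:**
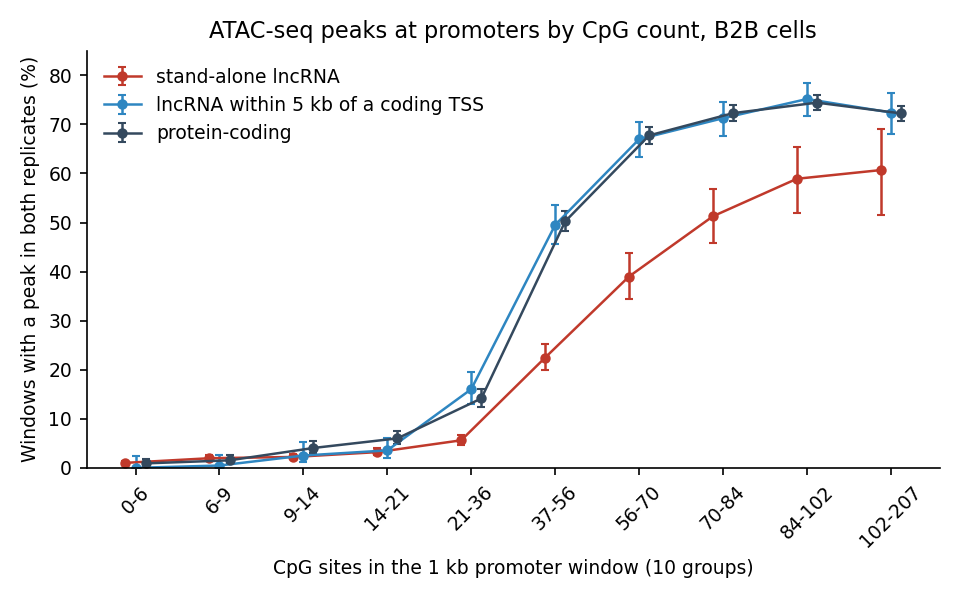
Share of promoter windows with a peak in both replicates (y axis, percent) by the number of CpG sites in the 1 kb window (x axis, 10 groups of nearly equal size over all promoters), for stand-alone lncRNA genes, lncRNA genes within 5 kb of a coding TSS and protein-coding genes, with 95% Wilson intervals. The stand-alone promoters reach 60.7% in the highest group, where coding promoters reach 72.2%.

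A second lncRNA start nearby went with more frequent peaks. Of the members with another lncRNA TSS on the opposite strand within 1 kb, 234 of 747 were open, or 31.3% (28.1 to 34.7). With a neighbor on the same strand only the share was 19.2% of 182 (14.2 to 25.6), and with none it was 5.79% of 13458 (5.41 to 6.20). Windows with an opposite-strand neighbor also held more CpG sites, with a median of 36 compared with 12, and the order was the same within broad CpG classes. In CpG groups 5 to 8, which span 21 to 84 sites, 40.9% of windows with such a neighbor and 14.7% of those with none were open, and in groups 9 and 10, with 84 sites or more, 72.8% and 54.0% were. CpG counts still differed within these classes, with medians of 49 and 34 in groups 5 to 8. Because of such neighbors, the 1048 open windows rested on 919 distinct replicate 2 peaks, and 246 of them shared their highest peak with another open member. Taken as separate stretches of DNA, 916 of 13911 runs of overlapping windows held an open member.

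Other annotation features went along with peaks as well. Members with 1 annotated transcript were open in 5.24% of cases and those with 10 or more in 18.8% (16.3 to 21.7), and with 84 CpG sites or more these shares were 52.0% and 80.4%. Windows between protein-coding genes were open more often (8.66% of 9607) than those inside a coding gene on its opposite strand (4.69% of 3433) or its own strand (4.08% of 1347). This order was not seen in every CpG class. In groups 1 to 4, with at most 21 sites, the shares were 2.198%, 2.16% and 0.898%, in groups 5 to 8 they were 20.7%, 8.97% and 17.0%, and in groups 9 and 10 they were 59.7%, 57.4% and 70% (7 of 10 windows). Most members, 10413 or 72.4%, have only an Ensembl identifier, and 5.95% of these were open. Members with a LINC name reached 7.98%, those named as antisense to another gene 9.02%, and the 91 named as microRNA or snoRNA host genes 34.1% (25.2 to 44.3). A start of some coding transcript other than the canonical one lay within 500 bp of 519 members, of which 16.8% were open (13.8 to 20.2). Of the 12470 members over 5 kb from every annotated coding start, 7.14% were open (6.70 to 7.60), which is close to the share of all members. The 519 also held more CpG sites, with a median of 21 compared with 12. Within CpG classes the intervals of the 2 sets overlapped. The shares were 1.92% and 2.05% in groups 1 to 4, 22.7% and 18.6% in groups 5 to 8, and 64.3% and 58.7% in groups 9 and 10. For genes with several starts the canonical one did not always carry the peak. Of the 13058 members with no peak at the canonical TSS, 3968 have another annotated start and 209 of these had a peak in both replicates at one.

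Taken over all CpG counts, the open members had slightly weaker and narrower peaks than open coding promoters. Fold enrichment here is the linear ratio that MACS2 gives, of the summit pileup over the background around it. Its median was 7.13 in replicate 1 and 9.06 in replicate 2 (mean 8.10 ± 1.37, SD, n = 2) at open stand-alone promoters, and 8.14 and 9.73 (8.94 ± 1.12) at open coding promoters. The members were lower in both lists. The gap was less than the SD of either class. That SD is the spread between libraries, not the spread of the difference within a library. By CpG group the order was mixed. The members were lower in both replicates in groups 2 and 6 to 9 and higher in both in groups 1 and 4. In groups 3, 5 and 10 the replicates did not give the same order. The median peak was 364.5 bp wide in replicate 1 and 447.5 bp in replicate 2, compared with 482 and 569 bp at coding promoters. Width went with CpG count among the members, with replicate 1 medians of 291 bp in groups 1 to 4 and 537 bp in groups 9 and 10. Across the 1048 open members the Spearman correlation of fold enrichment between the replicates was 0.818, and these windows share libraries and in part peaks.

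The peaks lay less tightly on the annotated start. The median summit was 56.5 bp upstream of the TSS in replicate 1 and 54 bp upstream in replicate 2, compared with 72 and 73 bp at coding promoters. However, 40.5% and 39.98% of the summits were within 100 bp of the TSS, compared with 52.6% and 51.6%, and the peak covered the TSS itself at 63.9% and 68.1% of open members, compared with 85.5% and 88.6% of open coding promoters. Both replicates thus gave a wider scatter around lncRNA starts, which the plot of summit positions shows on both sides of the TSS.

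**Figure D3:**
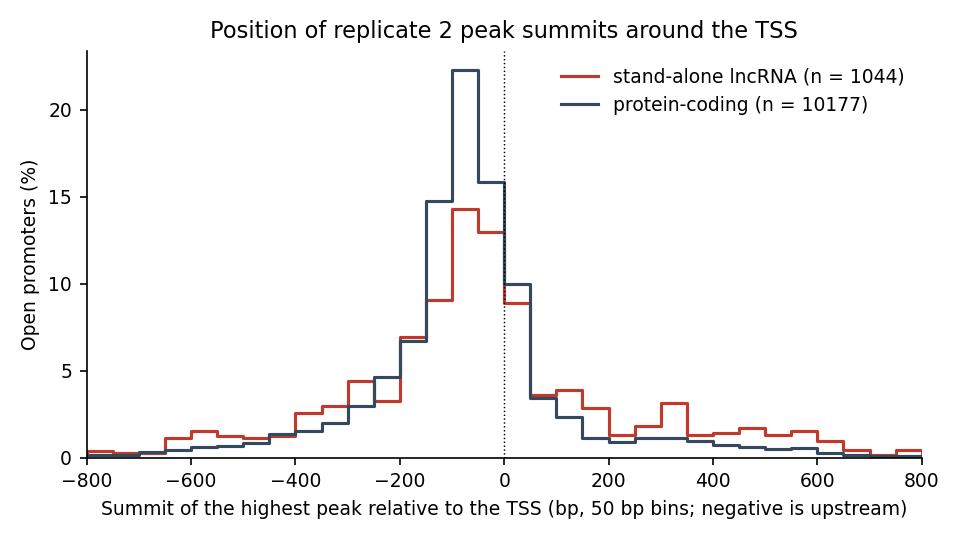
Position of the replicate 2 summit of the highest peak relative to the TSS (x axis, bp in gene direction, bins of 50 bp) as a percentage of open promoters (y axis), for stand-alone lncRNA and protein-coding genes. Both peak just upstream of the TSS, and the stand-alone lncRNA promoters have a lower center, with 39.98% of summits within 100 bp, and heavier flanks.

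The strongest peaks at the members were of mixed kinds. The 2 highest values are uncertain, because the peak sequences at ENSG00000289474 on chromosome 2 (fold enrichment 69.8 in replicate 1 and 68.3 in replicate 2) and ENSG00000289901 on chromosome 13 (51.2 and 50.5) match mitochondrial DNA. Leaving these 2 out, the highest by the mean of the replicates was ENSG00000224905 on chromosome 21, with 26.9 in replicate 1 and 28.9 in replicate 2. SLC28A2-AS1 and ENSG00000285597 on chromosome 15, on opposite strands with starts at 45279251 and 45279423, shared a peak with 24.3 and 27.2. ANKRD20A5P on chromosome 9, named as a pseudogene of a multicopy family and so uncertain in its read placement, had 27.1 and 22.2. DANCR and LINC01618 on chromosome 4 shared a peak with 25.2 and 23.4, and LINC01023 and ENSG00000289260 on chromosome 5 shared one with 20.1 and 23.3. LNC-LBCS on chromosome 6 had 21.5 and 21.3. The remaining gene among the 10 highest, ENSG00000290079 on chromosome 3, had 21.8 and 22.4 with only 12 CpG sites in its window and 125 fragments at its replicate 1 summit. It was the only one of these 10 with the AP-1 motif at the summit. The values of each replicate are drawn against each other in the plot of fold enrichment.

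**Figure D4:**
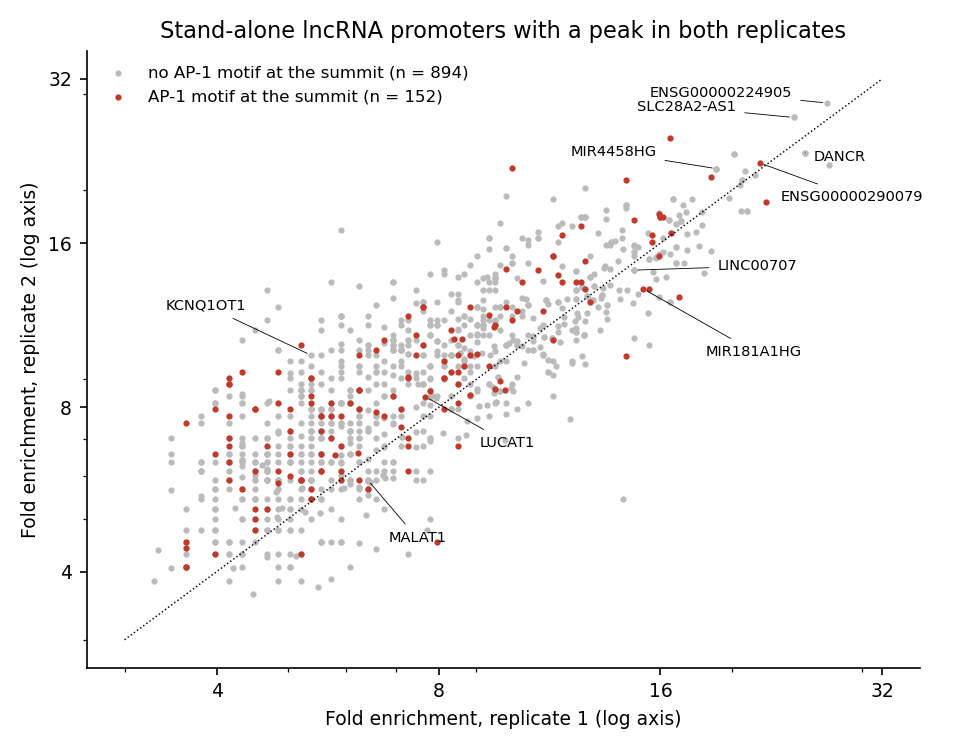
Fold enrichment of the highest peak at each open stand-alone lncRNA promoter in replicate 1 (x axis, log scale) and replicate 2 (y axis, log scale), without the 2 promoters that match mitochondrial DNA. Red points have the AP-1 motif within 100 bp of the replicate 2 summit, the dotted line marks equal values, and 1 of the 10 promoters with the highest mean, ENSG00000290079, is red.

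The AP-1 motif was frequent at the open promoters with few CpG sites. Of the 1048 open members, 152 had TGACTCA on either strand within 100 bp of the replicate 2 summit, or 14.5% (12.5 to 16.8), compared with 2.86% (2.23 to 3.67) in stretches of the same length 1 kb to either side. With each peak counted once the share was 15.9%, and within 50 bp of the summit it was 9.54%. Open coding promoters had the motif in 2.09% (1.83 to 2.39), no more than in their own flanks (2.63%), and the difference to the members was 12.4 points (10.4 to 14.7). Regions with a peak in both replicates that lay over 5 kb from a coding TSS and touched no member window had it in 35.1% of 12536 (34.3 to 35.9), so the members stood between the coding promoters and the other distal regions.

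Split by CpG count, the members differed among themselves. In CpG groups 1 to 4, with at most 21 sites, 91 of 215 open members had the motif, or 42.3% (35.9 to 49.0). Other distal regions with as few CpG sites around their summit had it in 40.8%, and the difference of 1.54 points had an interval from -4.95 to 8.29 that held 0. The few open coding promoters of these groups had it in 26.3% of 137, which was 16.05 points lower (5.84 to 25.5). In groups 5 to 8 the share was 9.33% of 643 members, 17.2% of other distal regions and 2.12% of coding promoters, and the intervals of both differences lay away from 0. In groups 9 and 10 only 1 of 190 members had it, or 0.526% (0.0930 to 2.92), compared with 1.35% of coding promoters. Within groups 1 to 4, the 91 members with the motif had median fold enrichments of 7.45 in replicate 1 and 8.61 in replicate 2, and the 124 without it had 6.06 and 7.56. In groups 5 to 8 the order was the opposite, with 6.67 and 9.005 for the 60 members with the motif and 7.62 and 9.52 for the 583 without it. The plot of the AP-1 motif by CpG class sets these shares side by side.

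**Figure D5:**
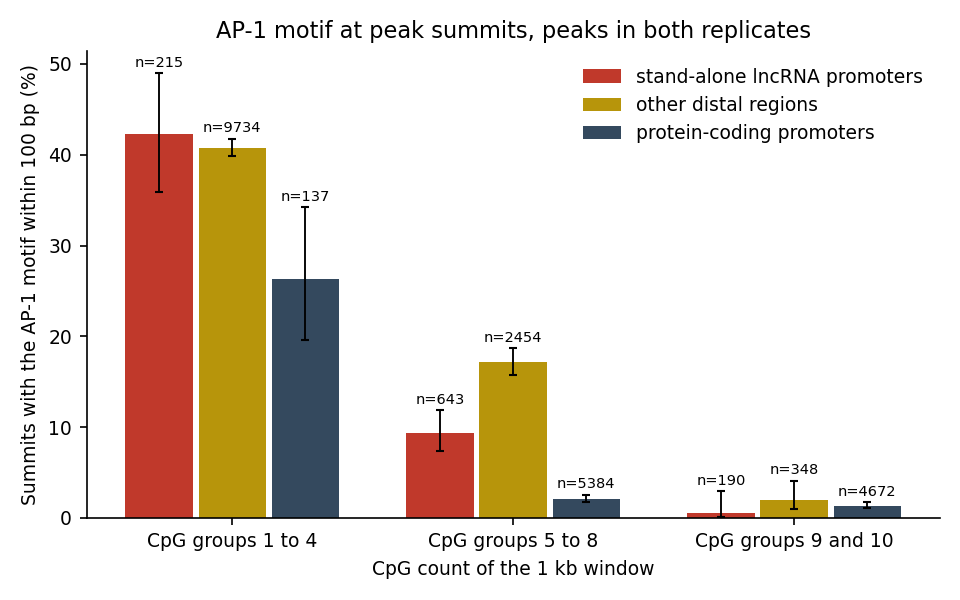
Share of peak summits with TGACTCA on either strand within 100 bp (y axis, percent) in 3 classes of CpG count (x axis), for open stand-alone lncRNA promoters, other distal regions with a peak in both replicates and open protein-coding promoters, with 95% Wilson intervals and the number of summits. At the lowest CpG counts the members (42.3%) sit with the distal regions (40.8%), and at the highest they are at 0.526%, below 1.35% of the coding promoters with an overlapping interval.

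Other motifs were searched over the whole 1 kb window on both strands, and no spelling below contains another. The NRF1 motif GCATGCGC, bound by a factor of housekeeping genes, was found in 6.49% of open members, 1.90% of members with no peak and 8.59% of open coding promoters, compared with 4.68% of all promoters. The ETS motif CCGGAAGT was found in 6.01%, 1.126% and 12.3% in the same order (5.47% of all), and the GC box GGGCGG, the site of SP factors, in 74.9%, 22.6% and 94.3% (57.9% of all). At 84 CpG sites or more, 7.89% of open members and 2.73% of those with no peak had the NRF1 motif, with intervals that overlapped, while the GC box was in 98.9% and 94.5%. Among members with at most 21 CpG sites, the AP-1 motif was anywhere in the window of 58.6% of open members and 18.5% of those with no peak (12.8% of all promoters). Over all CpG counts these shares were 23.5% and 17.3%. The RUNX motif TGTGGTTT was in 5.15% of all open members and 6.90% of all those with no peak, and with at most 21 CpG sites in 13.5% (9.56 to 18.7) and 7.39% (6.89 to 7.91), compared with 4.68% of all promoters. The TEAD motif GGAATGT was in 8.78% and 14.1% of all open members and those with no peak, and with at most 21 CpG sites in 16.7% and 15.4%, with intervals that overlapped, compared with 10.4% of all promoters. A TATA box (TATAAA on the gene strand, 20 to 40 bp before the TSS) was rare throughout, at 0.859% of open members and 2.64% of all promoters. The CCAAT box was common everywhere, in 64.5% of open members and 67.6% of all promoters. A match says that these letters occur, not that a factor bound them.

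Genes were then read by what they are known for, from 9 lists of lncRNA genes that together held 138 members, of which 40 were open and 11 had a peak in 1 replicate. The snoRNA host genes, whose introns carry the small RNAs that guide modification of ribosomal RNA, had the highest open share of the 9 lists. Of 22 members on this list 15 were open (68.2%) and 2 had a peak in replicate 2 only (SNHG17 and SNHG7), compared with 34.4% of all promoters and 7.28% of stand-alone ones. At the shares of members with the same CpG group, 7.81 of the 22 would be open. The highest was DANCR, with fold enrichments of 25.2 in replicate 1 and 23.4 in replicate 2. EPB41L4A-AS1 had 16.1 and 15.4, SNHG21 had 14.7 and 15.4, SNHG5 had 12.4 and 11.7, and SNHG8 had 11.1 and 10.03. The lowest of the 15 by the mean of the replicates was SNHG11, with 6.24 and 5.89, and SNHG1, the host of several C/D snoRNAs, had 5.37 and 7.25. No peak lay at the canonical TSS of SNHG12, SNHG14, SNHG20, SNHG27 or SNHG32. Of these, SNHG12 had peaks in both replicates at 8 of its 13 annotated starts and SNHG20 at 10 of 12, with the nearest replicate 2 summit 1.06 kb and 1.97 kb from the canonical TSS.

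Host genes of microRNAs were mostly without a peak. Of 76 members on this list 19 were open (25%), 6 had a peak in 1 replicate and 51 had none, where 15.4 would be open at the shares of members of the same CpG groups. The strongest was MIR4458HG, with 19.1 in replicate 1 and 21.9 in replicate 2, a member 588.6 kb from the nearest coding TSS. MIR181A1HG had 15.2 and 13.2 with 9 CpG sites and the AP-1 motif, MIRLET7A1HG, which carries let-7 microRNAs, had 13.4 and 14.4 with 122 CpG sites, and MIRLET7IHG had 12.6 and 10.9. MIR17HG, the host of the miR-17-92 cluster that MYC induces, had 8.73 and 7.12, MIR22HG had 8.74 and 7.56, and MIR210HG, whose microRNA responds to hypoxia, had 9.53 and 8.16. MIR222HG had a peak in replicate 2 only, at 4.53. Among those with no peak were MIR205HG and MIR200CHG, hosts of microRNAs that mark epithelial cells, MIR122HG, the host of the main liver microRNA, and MIR124-2HG and MIR124-1HG, hosts of a neuronal one. MIR99AHG and MIRLET7BHG had no peak at the canonical TSS but had peaks in both replicates at 12 and 5 other annotated starts.

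Of 9 members on the list of widely expressed nuclear and scaffold lncRNAs 2 were open, close to the 2.93 at the shares of like CpG groups. MALAT1 had 6.41 in replicate 1 and 5.89 in replicate 2, with a summit 2 bp from its TSS. KCNQ1OT1, an antisense transcript that silences an imprinted cluster, had 5.37 and 9.97, so its replicates differed more than those of MALAT1. NORAD, a decoy of Pumilio proteins, and CYTOR had a peak in replicate 2 only, at 5.21 and 6.30. NEAT1, the scaffold of paraspeckles, LINC-PINT, JPX, FTX and FIRRE had none at the canonical TSS. The nearest replicate 2 summit was 1.45 kb from the TSS of NEAT1, and LINC-PINT and FTX had peaks in both replicates at 7 of 40 and 25 of 55 annotated starts. KCNQ1OT1 was also the open one of 10 imprinted members, compared with 1.66 at the shares of like CpG groups, and H19, MEG3, PEG13 and the others had no peak in either replicate.

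Of 14 members described in lung cancer, 7 were open (50%), compared with 3.15 at the shares of like CpG groups. LINC00707 was the strongest, with 14.7 in replicate 1 and 14.3 in replicate 2 at 7 CpG sites and without the AP-1 motif at its summit. LINC00511, near SOX9 but 471.8 kb away from it, had 11.0 and 11.2. LUCAT1 had 7.68 and 8.37 and LINC00460 had 5.54 and 7.25, both with the motif, as shown in the sequences above. MIR31HG had 5.02 and 9.74, and PVT1, the neighbor of MYC, had 4.33 and 8.38, each with a higher value in replicate 2. MALAT1, given before, completed the 7. CYTOR and LINC01116 had a peak in replicate 2 only, and UCA1, AFAP1-AS1, CASC19, BCAR4 and ELFN1-AS1 had none. On the list of p53 and stress responses, LUCAT1 and PVT1 were open and the other 4 members, among them MIR34AHG and PURPL, had no peak, where 2.14 of the 6 would be open at the shares of like CpG groups.

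The counts on the lineage lists were near those of like windows. None of 5 epithelial members had a peak in either replicate (MIR205HG, MIR200CHG, KRT7-AS, LINC00261 and HNF4A-AS1), where 0.701 would be open at the shares of like CpG groups. Of 6 mesenchymal members MIR100HG was open, with 6.41 in replicate 1 and 7.25 in replicate 2, and DNM3OS, MEG3, LINC01614, CARMN and MIR503HG had no peak, compared with 0.7502 at the shares of like CpG groups. Of 14 members known from other tissues, MIR9-1HG (7.103 and 10.2), the host of a neural microRNA, and MIR155HG (7.62 and 6.80), the host of an immune one, were open, MIR137HG had a peak in replicate 2 only, and 11 had none, compared with 1.54 open at the shares of like CpG groups. At MIR155HG the replicate 2 summit lay 510 bp downstream of the canonical TSS.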

How the data were processed

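ATAC-seq was carried out by the authors on 2 biological replicates of untreated B2B cells. Per the labels and methods, the authors aligned reads to hg38 using Bowtie2 (v.2.4.4) and discarded duplicates by their own code. Peaks came from MACS2 (v.2.2.7.1) callpeak, run on each replicate with all remaining reads kept. SAMtools (v.1.13) is also named in the submitters' processing notes. The Tn5 shift, the handling of mitochondrial reads and the q limit are not given in the sources used here. The deposited lists hold the fold enrichment at each summit as a linear ratio, and the −log10 p-value and −log10 q-value of each peak.

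TSSs were the canonical ones of GENCODE 44, and the reference was hg38. From each list the peaks on chromosomes 1 to 22 and X were kept, 28685 and 36109. A window was called with an overlap of at least 1 bp, and its highest peak was used. The summit fragment number was solved using fold enrichment and −log10 p, within a tolerance of 0.01, and were recovered for 99.9% of the peaks of either list. The solution, the overlaps and the motif search were tested on simulated data. Matches to mitochondrial DNA were found by blastn (BLAST 2.17.0, E-value limit 1e-10). Shares have 95% Wilson intervals and differences 95% Newcombe intervals, which cover counting error only. CpG groups are 10 groups of all windows by rank of CpG count, so a count at a border can be in both neighbors. CpG sites of other distal regions were counted within 500 bp of their summit. The software was Python 3.11.15, pysam 0.24.0, pandas 2.3.3, numpy 2.4.6, scipy 1.17.1 and matplotlib 3.10.9.

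The members, the gene lists and the motifs were chosen with earlier results of these data known. The genes named were the members of the lists, the 10 with the highest mean fold enrichment apart from those that match mitochondrial DNA, the 3 open members farthest from a coding TSS, and the 5 strongest with the AP-1 motif, of which 3 are described. Sequences are shown for 8 of these. The reference does not mark repeats, so the repeat content of the windows was not used here. Alternatives covered a stricter −log10 q (5), lists of equal length, other windows, starts, distances and overlaps, other motif settings, and each replicate alone.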

Additional observations from a re-analysis of the deposited data

How the results depend on the processing

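Of 67 alternative values 48 moved by less than the SD between the replicates and 19 moved by more. The differences to coding promoters stayed negative under every alternative, while shares and medians have no direction to change. The open share of stand-alone lncRNA promoters was 8.27% with the start of any annotated transcript and 8.49% with windows of 1 kb to either side. It ranged from 7.60% to 8.92% when either replicate was left out. The difference to coding promoters was -46.8 points with any annotated start and -47.9 to -44.5 with either replicate left out. Weighted by CpG group the difference was -10.2 points with any annotated start, -5.99 when members had to be over 1 kb from a coding TSS, and -6.16 to -5.35 with either replicate left out. The median fold enrichment stayed within the SD under every alternative, at 6.93 to 7.95 with either replicate left out.

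The share of open members with the AP-1 motif at the summit was 15.7% with 1 member per run of windows, 16.7% with any annotated start, 13.8% at over 1 kb from a coding TSS, 14.8% with the summit inside the window, 15.8% with windows of 1 kb and 15.1% with 250 bp to either side, and 15.3% without members near any coding transcript start. It was 16.8% with TGANTCA, 9.54% within 50 bp of the summit, and 15.005% to 15.97% with either replicate left out. The cause of these shifts was not tested. No paired analysis was possible because the data hold 1 condition. The depth limits every share. The weakest listed summits had 16 fragments in replicate 1 and 13 in replicate 2, and the fragments at promoters without a peak are not known.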
